A study of Mus musculus with 9 samples.

Results

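Expression of 10 genes of hepatic gluconeogenesis and of its control by the insulin-regulated transcription factor FOXO1 was followed across 9 liver arrays. The rule listed the genes by function and used no measured value of the comparisons, but they were chosen with earlier results of these data known. They comprised Pcx, Pck1, Fbp1, G6pc, Ppargc1a, Foxo1, Irs2, Igfbp1, Tat and Sds. For each gene the values are those of its brightest probe set, by the mean over all 9 arrays. Of the 10 genes, 9 were found among the 18193 genes with a probe set of their own in the array annotation, and Sds, which encodes serine dehydratase, was not analysed here.

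All samples were total liver RNA of female C57BL/6J mice, with 1 array for each of 3 amoxicillin, 3 tylosin and 3 control samples. Amoxicillin, a beta-lactam, was dissolved in the drinking water at 0.167 mg/ml, planned as 25 mg per kg per day. Tylosin, a macrolide, was given at 0.333 mg/ml, planned as 50 mg per kg per day. Both were pulsed early in life, on days 10 to 15, 28 to 31 and 37 to 40, a regimen called pulsed antibiotic treatment (PAT), and the control mice received no antibiotic. All mice later ate high-fat chow, and livers were taken long after the last pulse, at 22 weeks of age by the study's design and 24 weeks by the sample labels. Litter mates shared a treatment and a cage in this study, the litter behind each array is not given in the sources used here, and the sources describe fasting serum without the length of the fast or the hour of killing. The p-values therefore measure only the spread between these samples.

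Gluconeogenesis is the synthesis of glucose from lactate, glycerol and amino acids, and the liver performs most of it during fasting. Glucagon, acting through cAMP and the factor CREB, and glucocorticoids raise the transcription of its enzymes, partly through the coactivator PGC-1α, the product of Ppargc1a. Insulin opposes them through AKT, which phosphorylates FOXO1 and keeps it out of the nucleus, so that FOXO1 targets such as Igfbp1, Irs2, G6pc and Pck1 are expressed at higher levels when insulin is low.

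Ppargc1a was the only gene of the set called in any comparison. It was higher by 0.87 on the log2 scale, or 1.83-fold, in the 6 antibiotic arrays than in the 3 control arrays. With each antibiotic alone it was not called. The 4 enzymes of the pathway and the hormone-responsive genes Igfbp1 and Tat gave no call in any comparison. Irs2 and Pcx were lower in tylosin livers by 0.77 and 0.43 in values that did not meet both thresholds of a call. Irs2 met the fold threshold alone (limma, unadjusted P = 0.024) and Pcx the P threshold alone (0.0061). The unadjusted P of Ppargc1a with both antibiotics was 0.0068, so that of Pcx with tylosin was the smaller. A call required a log2 fold change beyond 0.5 in either direction together with an unadjusted P under 0.01. By this rule 0 of 9 genes were called with amoxicillin, where 1.28% of all genes were called, and 0 of 9 with tylosin, where the share of all genes was 1.45%. Ppargc1a, 1 of the 9, was called in the comparison of both antibiotics with control, against 1.3% of all genes, and 0 of 9 in tylosin against amoxicillin, against 0.11%. At an unadjusted P under 0.05, 1 gene was higher with amoxicillin, and with tylosin 1 was higher and 2 were lower. In limma's tests adjusted over all probe sets (Benjamini-Hochberg), 0 of 18193 genes had an adjusted p under 0.05 with either antibiotic, and the smallest was 0.17 with each. At an unadjusted P under 0.05, 1299 of all genes were higher and 1517 lower with amoxicillin, and 1508 were higher and 1510 lower with tylosin. The median log2 fold change of the 9 genes was -0.01 with amoxicillin and 0.02 with tylosin, against -0.03 and -0.01 over all genes. All 9 were among the 7732 genes with at least 3 arrays above 6 on the log2 scale, whose medians were 0.06 and 0.08.

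**Figure D1:**
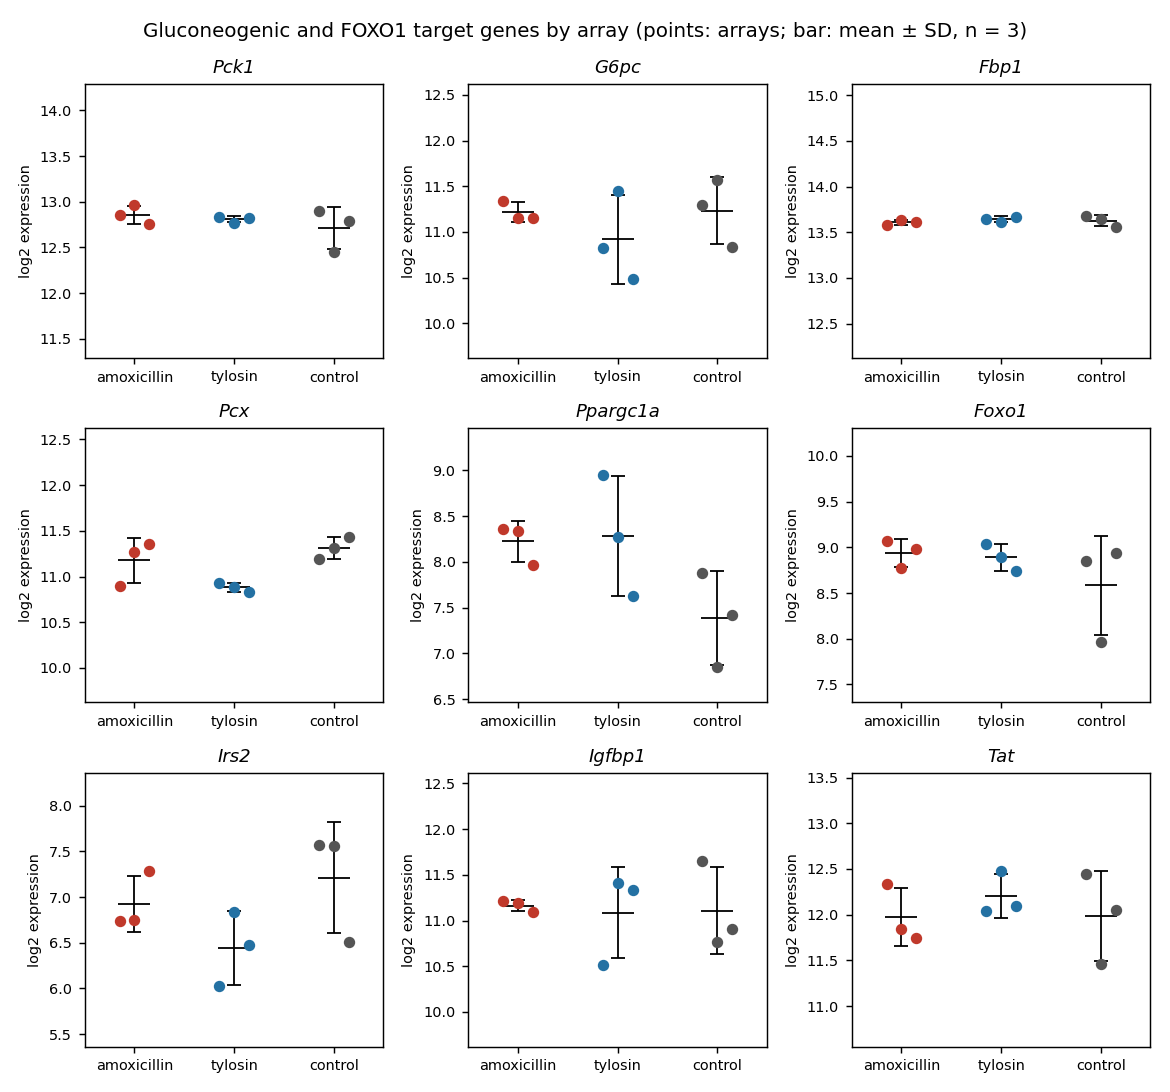
Log2 expression (y axis, each panel spanning the same width of the scale) of the 9 measured genes in amoxicillin, tylosin and control livers (x axis). Points are arrays, and bars give the mean and SD of 3 arrays. The Ppargc1a points of amoxicillin livers, 7.97 to 8.36, lie above those of control livers, 6.85 to 7.88, and the Pcx points of tylosin livers, 10.83 to 10.93, lie below those of control livers, 11.19 to 11.43.

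The bases before the start sites of 4 of the genes are shown because the hormonal inputs to this pathway are read at such sequences, and because Ppargc1a, which was called, can be set beside 3 genes of its pathway that were not. Capitals mark matches to the motifs searched. Each sequence is the 200 bases before the RefSeq start site on build GRCm38.p6, given 5′ to 3′ on the strand of the gene, from chr5:51567726-51567925 (minus strand) for Ppargc1a, chr2:173152873-173153072 (plus strand) for Pck1, chr11:101367516-101367715 (plus strand) for G6pc and chr11:7197587-7197786 (plus strand) for Igfbp1.
Ppargc1a: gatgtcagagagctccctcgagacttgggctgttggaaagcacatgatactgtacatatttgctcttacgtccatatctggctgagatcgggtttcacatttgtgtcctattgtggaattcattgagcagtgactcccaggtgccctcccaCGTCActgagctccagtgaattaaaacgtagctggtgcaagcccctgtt
Pck1: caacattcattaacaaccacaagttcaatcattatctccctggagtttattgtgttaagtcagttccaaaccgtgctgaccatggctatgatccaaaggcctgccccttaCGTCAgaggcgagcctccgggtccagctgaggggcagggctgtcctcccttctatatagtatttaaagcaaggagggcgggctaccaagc
G6pc: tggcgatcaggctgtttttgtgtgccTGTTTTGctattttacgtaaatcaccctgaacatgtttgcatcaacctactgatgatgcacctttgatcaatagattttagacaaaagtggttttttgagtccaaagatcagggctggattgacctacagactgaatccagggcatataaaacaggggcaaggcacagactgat
Igfbp1: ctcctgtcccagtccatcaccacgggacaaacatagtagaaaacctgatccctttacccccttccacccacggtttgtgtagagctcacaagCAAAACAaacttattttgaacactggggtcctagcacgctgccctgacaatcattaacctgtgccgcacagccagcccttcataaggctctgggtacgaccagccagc

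The windows searched ran from 250 bases before to 50 after each start site, on both strands, and were found for all 9 measured genes, with 2 start sites for Pcx. The windows of Ppargc1a and Tat lie inside the annotated genes, which span chr5:51454249-52115853 and chr8:109986078-109999804. The bases before the outer start of these genes were not searched. The core of the cAMP response element (TGACG) was matched in Ppargc1a and Pck1, where it reads CGTCA on the strand shown and its first base lies 49 and 90 bases before the start site. This core is present in 20.8% of 32851 RefSeq promoter windows of the same length. The core of the insulin response element (CAAAACA), which binds FOXO factors, was matched in Igfbp1 at 108 bases, in G6pc at 174 bases and in Irs2 at 37 bases before the start site, on the strand shown in Igfbp1 and on the other strand in G6pc and Irs2. It is present in 6.3% of all windows. The FOXO consensus element (GTAAACA, 3.6% of windows), the full cAMP response element (TGACGTCA, 1.8%, which contains that core), the HNF4 core (CAAAGTCCA, 0.5%) and the glucocorticoid receptor core site (AGAACA, 19%) were matched in 0 of the 9 genes. A match of letters is a description of the window and no test of binding.

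Markers of other cell types were measured to see which arrays stood apart. The hepatocyte markers, such as Alb, were steady, with a summed log2 level of 16.56 to 16.59 in amoxicillin, 16.54 to 16.57 in tylosin and 16.56 to 16.58 in control livers. Alb, at 14.64 to 14.71, stands at the top of the scale, which reached 14.71, so this sum can show little of a change in hepatocyte content. Hnf4a, the dimmest of the 5, ran from 11.89 to 12.27. Amoxicillin replicate 1 and tylosin replicate 2 stood apart in intestinal, smooth muscle and cholangiocyte genes. The intestinal gene Reg3b, an antimicrobial lectin, read 10.18, 2.67 and 2.70 in amoxicillin livers and 7.75, 9.72 and 3.01 in tylosin livers, against 3.07, 3.15 and 3.08 in control livers. It was thus also raised in tylosin replicate 1, the array with the highest Ppargc1a. Of the other intestinal markers there, Muc2 (3.53) and Vil1 (3.60) lay within the control range, and Zg16 (6.07) and Tff3 (4.56) slightly above it. The smooth muscle sum of that array, 7.96, lay within the control range. The mucus gene Zg16 read 8.71 and 8.41 in amoxicillin replicate 1 and tylosin replicate 2, against 5.09 to 6.07 in the other 7 arrays. Of 16 intestinal markers, 10 were at or under 6 in all arrays. The summed level of all 16, in which Fabp2 at 10.90 to 11.62 dominates, ran from 11.30 to 12.06 with amoxicillin and from 11.27 to 11.96 with tylosin, against 11.25 to 11.56 in control livers. Of the 8 smooth muscle markers, 4 were at or under 6 in all arrays, and their sum was 9.40 and 9.58 in those 2 arrays, against 7.71 to 8.05 in the other 7. The 4 cholangiocyte markers summed to 7.81 and 7.28 in the same 2 arrays, against 6.19 to 6.37 in the other 7. Of these 4, 3 were at or under 6 in all arrays. Epcam, the brightest there, was 7.10 and 6.48, against 3.78 to 4.83. Without both arrays, Ppargc1a was higher by 0.84 for both antibiotics and was no longer called.

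Tylosin replicate 3 stood apart in some immune genes. Its 7 lymphocyte markers summed to 10.97, against 8.56 to 9.25 in the other 8 arrays. Its 6 adipocyte markers summed to 8.43, against 7.67 to 7.96. Of these 6, 5 were at or under 6 in all arrays, so the sum rests on Fabp4. Of the 7 lymphocyte markers, 4 were at or under 6 in all arrays. Ighm dominates their sum, at 10.49 in tylosin replicate 3 and 7.07 to 8.17 elsewhere. Ptprc was 8.83 there and 6.73 to 8.01 elsewhere, and Cd3g (3.74) lay slightly above the other arrays. Cd3e (5.76), Cd8a (4.57), Cd79a (4.03) and Nkg7 (3.91) of that array lay within the range of the others. The macrophage receptor gene Marco was 10.95 there and 5.81 to 8.67 elsewhere, and the Kupffer cell gene Clec4f was 7.50 there and 9.20 to 9.66 elsewhere. The sum of the 8 macrophage markers was 12.40 to 13.06 with amoxicillin and 12.70 to 13.45 with tylosin, against 12.40 to 13.01 in control livers. The same array held the lowest G6pc and Pcx values of the 9 and the lowest Ppargc1a value of the tylosin arrays. Without it, the tylosin values were 1.23 for Ppargc1a, which was then called, -0.10 for G6pc, -0.40 for Pcx and -0.78 for Irs2, and the calls with tylosin over all probe sets numbered 996 higher and 560 lower, against 466 and 172 with the array kept. The part of these markers in the differences of Ppargc1a, Pcx and Irs2 was not otherwise tested, and in whole liver fewer cells of a type and less RNA per cell cannot be told apart. The 3′ minus 5′ difference, a measure that moves with RNA degradation and labelling, was 1.39 to 1.57 with amoxicillin and 1.21 to 1.73 with tylosin, against 1.29 to 1.40 in control livers, for Actb. For Gapdh it was 0.31 to 0.54 with amoxicillin and 0.34 to 0.53 with tylosin, against 0.23 to 0.43 in control livers.

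Ppargc1a encodes PGC-1α, a transcriptional coactivator that is raised in the fasted liver and drives genes of gluconeogenesis and mitochondrial oxidation together with FOXO1 and HNF4. Its brightest probe set (1460336_at) had log2 values of 8.36, 8.34 and 7.97 in amoxicillin livers, of 8.95, 8.27 and 7.63 in tylosin livers and of 7.88, 6.85 and 7.42 in control livers. All 3 amoxicillin values lay above all 3 control values, and tylosin replicate 3 lay below the highest control. The mean was 8.22 ± 0.22 with amoxicillin and 8.28 ± 0.66 with tylosin, against 7.38 ± 0.52 in control livers (SD, n = 3 each). The log2 fold change was 0.84 with amoxicillin (SE 0.32, 95% confidence interval 0.13 to 1.54, adjusted p = 0.29) and 0.90 with tylosin (SE 0.32, interval 0.19 to 1.60, adjusted p = 0.26), neither of which was a call. These comparisons share the same 3 control arrays. With 1 array left out, the tylosin value ran from 0.56 (without tylosin replicate 1) to 1.23 (without tylosin replicate 3), and 2 of 9 such fits gave a call. The amoxicillin value ran from 0.57 (without control replicate 2) to 1.09 (without control replicate 1), and 3 of 9 gave a call. The antibiotics differed from each other by 0.06, tylosin minus amoxicillin, with an interval of -0.64 to 0.76.

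The comparison of all 6 antibiotic arrays with the 3 control arrays gave 0.87 (SE 0.26, interval 0.29 to 1.45, adjusted p = 0.13), which met both thresholds of the call but not the adjusted p of 0.05. Control replicate 2, at 6.85, was the lowest of the 9 arrays. Without it the log2 fold change was 0.60 and was not called. The value lay between 0.60 and 1.12 over the 9 fits that each left out 1 array, and 4 of these 9 fits gave a call. Among all genes, the amoxicillin arrays all lay above the control arrays in 9.52% and all below them in 11.4%, so the separation seen for Ppargc1a with amoxicillin was 1 among many of its kind.

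Ppargc1a is read by 5 probe sets, and all 5 had higher means with each antibiotic than in control livers. For both antibiotics together, the log2 fold changes were 0.87 for 1460336_at, 0.84 for 1456395_at, 0.82 for 1434099_at, 0.76 for 1437751_at and 0.52 for 1434100_x_at. All but 1437751_at were called in this comparison, 4 of the 5. The dimmest, 1434099_at, was called with each antibiotic alone, at 0.78 with amoxicillin (SE 0.24, adjusted p = 0.25) and at 0.85 with tylosin (SE 0.24, adjusted p = 0.21). Its values were 6.04, 5.88 and 5.96 in amoxicillin livers and 6.39, 6.05 and 5.63 in tylosin livers, against 5.66, 4.63 and 5.23 in control livers. All 5 probe sets were lowest in control replicate 2 and highest in tylosin replicate 1, although 1456395_at read 6.12 in control replicate 3 against 6.10 in control replicate 2. These probe sets read RNA of the same samples and are not replicates of the comparison.

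**Figure D2:**
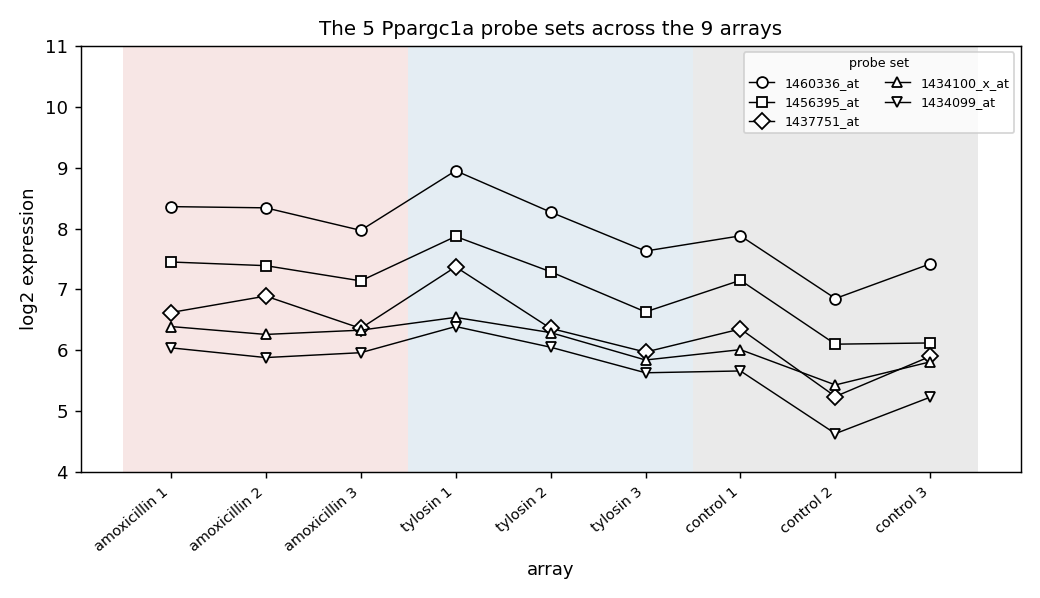
Log2 expression (y axis) of the 5 Ppargc1a probe sets in each array (x axis), with amoxicillin, tylosin and control arrays shaded from left to right. Lines join the values of 1 probe set and carry no order in time. The probe sets run in parallel, with the lowest values in control replicate 2 (6.85 for the brightest) and the highest in tylosin replicate 1 (8.95).

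The 5 genes whose values ran closest to Ppargc1a over the 9 arrays, among 7731 other genes with at least 3 arrays above 6 on the log2 scale, were Bmp2 (Pearson r = 0.985), Epc1 (0.975), Tab3 (0.97), Aggf1 (0.964) and Fryl (0.962). All 9 arrays share the same normalization, and r is given here as a description of likeness.

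Foxo1 encodes the transcription factor itself. Its brightest probe set (1416983_s_at) had values of 9.07, 8.77 and 8.98 in amoxicillin livers and of 9.04, 8.89 and 8.74 in tylosin livers, against 8.85, 7.96 and 8.94 in control livers. Control replicate 2 again stood below the other 8 arrays, and the other 2 control arrays lay within the range of the antibiotic arrays. Foxo1 was higher on average by 0.35 with amoxicillin (SE 0.22, adjusted p = 0.47) and 0.30 with tylosin (SE 0.22, adjusted p = 0.53). Without control replicate 2 these values were 0.04 and -0.01. Of the other Foxo1 probe sets, 1416982_at gave 0.53 with each antibiotic (SE 0.24, adjusted p = 0.34 for each) and 1416981_at gave 0.30 and 0.32, while 1456529_at, at 3.33 to 4.02 in all arrays, was dim.

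The enzymes that open and close the pathway showed smaller differences. Pcx encodes pyruvate carboxylase, the mitochondrial enzyme that makes oxaloacetate from pyruvate. It was 10.90, 11.27 and 11.36 in amoxicillin livers and 10.93, 10.89 and 10.83 in tylosin livers, against 11.19, 11.31 and 11.43 in control livers. All 3 tylosin values lay below all 3 control values, an order that 9.15% of all genes showed with tylosin, while 8.21% showed the opposite one. Against control, Pcx had a log2 fold change of -0.43 with tylosin (SE 0.12, interval -0.70 to -0.15, adjusted p = 0.21), under the 0.5 that a call requires, and -0.13 with amoxicillin (SE 0.12, interval -0.41 to 0.14). Tylosin minus amoxicillin was -0.29 (SE 0.12, adjusted p = 1). Amoxicillin replicate 1, at 10.90, stood with the tylosin arrays, and without it the amoxicillin value was 0.01. Over the fits that left out 1 array, the tylosin value stayed between -0.48 and -0.36.

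Pyruvate carboxylase is also read by the manufacturer's control probe sets, which lie along its transcript. The probe set at the 3′ end read 10.81, 11.27 and 11.28 in amoxicillin livers and 10.87, 10.96 and 10.86 in tylosin livers, against 11.21, 11.27 and 11.42 in control livers. Its log2 fold change was -0.41 with tylosin (SE 0.13, adjusted p = 0.23) and -0.18 with amoxicillin (SE 0.13, adjusted p = 0.52). The probe set at the 5′ end was dim, at 5.54 to 5.96 in all arrays, with a log2 fold change of -0.10 with tylosin. The control probe set labelled MB, at 6.33 to 7.01, gave -0.29 with tylosin (SE 0.14, adjusted p = 0.36). That labelled MA, dim at 5.41 to 5.69, gave -0.01. All of these read RNA of the same samples and are not replicates of the comparison.

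Pck1 encodes the cytosolic phosphoenolpyruvate carboxykinase, which turns oxaloacetate into phosphoenolpyruvate and is the classical target of glucagon, glucocorticoids and insulin in the liver. Its values were 12.85, 12.96 and 12.76 in amoxicillin livers and 12.83, 12.77 and 12.82 in tylosin livers, against 12.90, 12.45 and 12.79 in control livers. The groups overlapped. Against control, Pck1 gave log2 fold changes of 0.14 with amoxicillin (SE 0.12, interval -0.12 to 0.40) and of 0.09 with tylosin (SE 0.12, interval -0.17 to 0.35), so both intervals lay between -0.17 and 0.40. The value stands near the top of the scale, which reached 14.71 on these arrays. The dimmer probe set 1439617_s_at, at 8.87 to 9.76, gave 0.32 with amoxicillin (SE 0.17, adjusted p = 0.40) and 0.08 with tylosin (SE 0.17, adjusted p = 0.85).

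Fbp1 encodes fructose bisphosphatase, which removes a phosphate on the way back to glucose. It was the steadiest of the 9 genes, with a range of 0.12 over all 9 arrays. Its log2 fold change was -0.02 with amoxicillin (interval -0.19 to 0.16) and 0.02 with tylosin (interval -0.16 to 0.19). It is also among the brightest readings, at 13.56 to 13.68.

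G6pc encodes the catalytic subunit of glucose-6-phosphatase, which releases free glucose. Its values were 11.34, 11.15 and 11.15 in amoxicillin livers and 10.82, 11.45 and 10.49 in tylosin livers, against 11.29, 11.57 and 10.84 in control livers. The tylosin arrays spread from 10.49 to 11.45 and overlapped the control arrays, and the amoxicillin arrays lay inside the control range. The log2 fold change was -0.02 with amoxicillin (SE 0.23, interval -0.53 to 0.50) and -0.31 with tylosin (SE 0.23, interval -0.83 to 0.20, adjusted p = 0.54). The tylosin value was -0.58 without tylosin replicate 2 and -0.10 without tylosin replicate 3. Unlike Ppargc1a and Foxo1, G6pc was highest in control replicate 2.

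**Figure D3:**
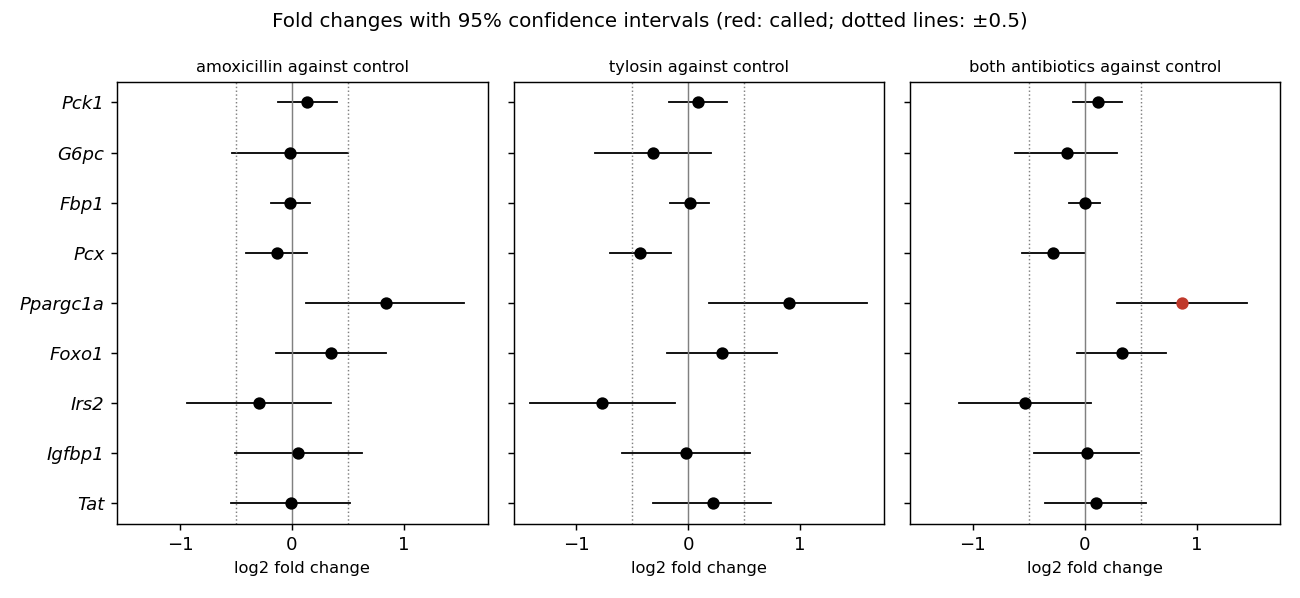
Log2 fold changes (x axis) of the 9 genes (y axis) for amoxicillin, tylosin and both antibiotics against control. Points are limma estimates, lines their 95% confidence intervals, dotted lines the fold threshold of a call and red a call. Ppargc1a (0.87 for both antibiotics) is the call shown. Its intervals with amoxicillin and with tylosin, and those of Pcx (-0.70 to -0.15) and Irs2 (-1.41 to -0.12) with tylosin, also leave out 0.

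Among the FOXO1 targets outside the enzymes, Irs2 gave the larger value and Igfbp1 one near 0. Irs2 encodes the insulin receptor substrate that carries much of the hepatic insulin signal and is repressed when insulin is high. Its single probe set (1443969_at) had values of 6.74, 6.75 and 7.28 in amoxicillin livers and of 6.03, 6.84 and 6.47 in tylosin livers, against 7.57, 7.56 and 6.51 in control livers. Control replicates 1 and 2 stood above all 6 antibiotic arrays, and control replicate 3 stood among the tylosin arrays. The log2 fold change was -0.77 with tylosin (SE 0.29, interval -1.41 to -0.12, adjusted p = 0.28) and -0.29 with amoxicillin (SE 0.29, interval -0.94 to 0.35, adjusted p = 0.66). The difference of tylosin minus amoxicillin, -0.48, had an interval of -1.12 to 0.17. Without control replicate 3 the tylosin value was -1.12 (adjusted p = 0.25) and met both thresholds of the call, so this gene's call depends on 1 control array. The amoxicillin value was -0.64 without control replicate 3 and -0.12 without control replicate 1, and neither was called.

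Igfbp1 encodes a liver-secreted binding protein of the insulin-like growth factors that falls quickly in response to insulin. It was 11.21, 11.19 and 11.09 in amoxicillin livers and 10.51, 11.41 and 11.33 in tylosin livers, against 11.65, 10.76 and 10.91 in control livers. The 3 groups overlapped. Differences from control were 0.06 with amoxicillin (SE 0.26, interval -0.51 to 0.63) and -0.02 with tylosin (SE 0.26, interval -0.59 to 0.55). The spread between arrays of 1 group was wide, with an SD of 0.50 in tylosin and 0.48 in control livers and of 0.06 in amoxicillin livers, and differences of up to 0.63 remain within the intervals.

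Tat encodes tyrosine aminotransferase, an amino acid enzyme induced by glucocorticoids and glucagon. It was 12.34, 11.84 and 11.74 in amoxicillin livers and 12.04, 12.48 and 12.09 in tylosin livers, against 12.44, 11.46 and 12.05 in control livers. Tat differed from control by -0.01 with amoxicillin (SE 0.24, interval -0.54 to 0.52) and 0.22 with tylosin (SE 0.24, interval -0.31 to 0.74), and the groups overlapped.

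The 9 genes also varied between arrays of the same group. Control replicate 2 held the lowest value of the 9 arrays for 4 genes, Pck1, Ppargc1a, Foxo1 and Tat, and the highest for G6pc. Control replicate 1 held the highest value for 3 genes, Fbp1, Irs2 and Igfbp1. Taking each gene relative to its own mean over the 9 arrays, the median over the 9 genes was -0.34 in control replicate 2 and lay between -0.07 and 0.11 in the other 8 arrays. Over 19 genes of the glucocorticoid receptor axis, described below, the same median was -0.32 in control replicate 2. It was -0.05 and 0.05 in control replicates 1 and 3, and -0.15 to 0.17 in the antibiotic arrays.

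The neighbouring genes of the pathway were taken from 11 lists. Calls were few in each of them, and over all genes their share was 1.28% with amoxicillin and 1.45% with tylosin. Most list genes were bright, and calls were more frequent among bright genes. Of the 7732 genes with at least 3 arrays above 6, 109 were called higher and 23 lower with amoxicillin. With tylosin these counts were 140 and 25, and with both antibiotics together 120 and 24. At an unadjusted P under 0.05, 997 of the 7732 genes with at least 3 arrays above 6 were higher and 269 lower with amoxicillin. With tylosin, 1133 of them were higher and 297 lower. Of 29 other enzymes and carriers of gluconeogenesis and shared glycolysis, 0 were called with amoxicillin and 1 with tylosin, with medians of -0.01 and 0.00. At an unadjusted P under 0.05, 0 were higher and 1 lower with amoxicillin, and 4 were higher and 1 lower with tylosin. The called gene was Slc25a12, a mitochondrial aspartate and glutamate carrier, at 6.91, 6.96 and 7.0 in tylosin livers against 6.59, 6.59 and 6.18 in control livers (log2 fold change 0.51, SE 0.13, adjusted p = 0.19). All 3 tylosin arrays were above all 3 control arrays, an order that 8.21% of all genes showed.

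Of 28 genes of insulin receptor and AKT signalling, 1 was called higher with amoxicillin and 0 with tylosin, with a median of 0.05 for each. At an unadjusted P under 0.05, 6 were higher and 0 lower with amoxicillin, and 7 were higher and 1 lower with tylosin. Rictor, the defining subunit of the mTORC2 complex that phosphorylates AKT, had values of 7.16, 7.22 and 7.35 in amoxicillin livers and of 6.99, 6.96 and 6.96 in tylosin livers, against 6.62, 6.62 and 6.73 in control livers. All 6 antibiotic arrays lay above all 3 control arrays, an order whose share of all genes is not given here. For 1 antibiotic against control that share was 9.52% with amoxicillin and 8.21% with tylosin. The log2 fold change was 0.59 with amoxicillin (SE 0.09, adjusted p = 0.17) and 0.31 with tylosin (SE 0.09, adjusted p = 0.20), the second too small for a call. Pik3r1, a regulatory subunit of phosphoinositide 3-kinase, gave 0.45 with amoxicillin and 0.44 with tylosin and was not called.

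Of 33 other FOXO factors and FOXO targets, 0 were called with either antibiotic, and the medians were 0.04 with amoxicillin and -0.02 with tylosin. At an unadjusted P under 0.05, 4 were higher and 3 lower with amoxicillin, and 2 were higher and 0 lower with tylosin. Pdk4, a kinase that shuts pyruvate dehydrogenase in fasting, gave -0.81 with amoxicillin (SE 0.48, adjusted p = 0.45) and -0.62 with tylosin (SE 0.48, adjusted p = 0.57), values within its error. Of 15 fasting genes outside gluconeogenesis, a list that also holds Pdk4, 0 were called, 3 of 15 had positive log2 fold changes with amoxicillin and 7 of 15 with tylosin, and 1, with tylosin, was higher at an unadjusted P under 0.05. Of 10 other genes of the IGF system and its binding proteins 0 were called with either antibiotic, and at an unadjusted P under 0.05, 1 was higher and 1 lower with tylosin.

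Calls for both antibiotics together, made in 1.3% of all genes, included 3 of 36 genes of the response to glucagon and cAMP and 2 of 17 clock genes. Of the 36 genes of the glucagon and cAMP list, 0 were called with amoxicillin, 2 were called higher with tylosin and 3 with both antibiotics together. At an unadjusted P under 0.05, 8 were higher and 0 lower with amoxicillin, and 11 were higher and 2 lower with tylosin. The medians for the 3 comparisons were 0.12, 0.13 and 0.13, against 0.06, 0.08 and 0.07 over all genes with at least 3 arrays above 6. Crem, a cAMP-responsive modulator of CREB targets, was 7.58, 7.21 and 7.08 in amoxicillin livers and 7.68, 7.68 and 7.28 in tylosin livers, against 7.05, 6.97 and 6.63 in control livers. All 6 antibiotic arrays were above all 3 control arrays, an order whose share of all genes is not given here. The log2 fold change was 0.66 with tylosin (SE 0.16, adjusted p = 0.19) and 0.40 with amoxicillin (SE 0.16, adjusted p = 0.31). The other calls for both antibiotics were Crebbp, a coactivator of CREB, at 0.55 (SE 0.18), and Adcy9, an adenylate cyclase, at 0.51 (SE 0.15).

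Of 19 genes of the glucocorticoid receptor axis, 0 were called with amoxicillin and 3 were called higher with tylosin, where 1.45% of all genes were called. At an unadjusted P under 0.05, 2 were higher and 1 lower with amoxicillin, and 6 were higher and 1 lower with tylosin. Dusp1, a phosphatase of MAP kinases that is also in the glucagon and cAMP list, was 9.20, 8.51 and 8.75 in amoxicillin livers and 9.38, 9.77 and 9.29 in tylosin livers, against 8.82, 8.57 and 9.02 in control livers. The tylosin arrays stood above the other 6, with a log2 fold change against control of 0.68 (SE 0.19, adjusted p = 0.20). With tylosin, 8.21% of all genes had all 3 arrays above all 3 control arrays. The others were the metallothionein gene Mt2, at 0.89 (SE 0.27), and the kinase gene Sgk1, at 0.59 (SE 0.17). Fkbp4, a cochaperone of the receptor, was lower with both antibiotics together (log2 fold change -0.55, SE 0.16, adjusted p = 0.12).

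Of 36 enzymes of amino acid catabolism, 0 were called with amoxicillin and 1 with tylosin. At an unadjusted P under 0.05, 4 were higher and 0 lower with amoxicillin, and 10 were higher and 0 lower with tylosin. With amoxicillin and tylosin, 26 and 27 of the 36 had positive log2 fold changes, with medians of 0.12 and 0.08. Among all genes with at least 3 arrays above 6, 64.3% and 66% had positive values, with medians of 0.06 and 0.08. The call was Hal, histidine ammonia lyase, at 11.01, 10.80 and 11.01 in tylosin livers against 10.23, 10.73 and 10.32 in control livers (log2 fold change 0.51, SE 0.14, adjusted p = 0.20). The 8 markers of periportal hepatocytes, the zone in which such enzymes are densest, had a summed level of 14.91 to 15.10 with amoxicillin and 14.93 to 15.02 with tylosin, against 14.87 to 14.93 in control livers. These markers include Hal itself, Ass1 and Cps1 of the same list, and Pck1, so the sum is not separate from them. Apart from Pck1, 6 of 7 of these markers had positive log2 fold changes with amoxicillin and 5 of 7 with tylosin. Cyp2f2 was 12.44, 12.40 and 11.97 in tylosin livers, against 12.33, 12.84 and 12.64 in control livers. The 10 pericentral markers summed to 14.93 to 14.94 with amoxicillin and 14.79 to 14.97 with tylosin, against 14.90 to 14.92 in control livers. The part of zonation was not tested. Of 27 transcription factor genes of gluconeogenic promoters 0 were called with either antibiotic, and at an unadjusted P under 0.05, 3 were higher and 1 lower with amoxicillin and 4 were higher and 2 lower with tylosin. Ppargc1b, the relative of Ppargc1a that coactivates lipogenic genes, gave -0.68 with tylosin (SE 0.24, adjusted p = 0.26).

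Of 21 genes of glycolysis and the fed state that oppose the pathway, 2 were called higher with amoxicillin, where 1.28% of all genes were called, and 0 with tylosin. At an unadjusted P under 0.05, 4 were higher and 0 lower with amoxicillin, and 2 were higher and 1 lower with tylosin. The medians were 0.13 and 0.02. Srebf1, the insulin-induced regulator of fatty acid synthesis, was 9.36, 9.23 and 9.18 in amoxicillin livers and 9.01, 8.72 and 8.81 in tylosin livers, against 8.38, 8.31 and 8.58 in control livers. Every antibiotic array was above every control array, an order whose share of all genes is not given here. The log2 fold change was 0.83 with amoxicillin (SE 0.11, adjusted p = 0.17) and 0.42 with tylosin (SE 0.11, adjusted p = 0.19), and tylosin minus amoxicillin was -0.41 (SE 0.11, adjusted p = 1). Acly, which supplies acetyl-CoA for that synthesis, was called with amoxicillin at 0.54 (SE 0.15, adjusted p = 0.22). Of 17 clock genes, the calls with amoxicillin were Npas2 at 1.05 and Ciart at -0.74, both dim, with no array reaching 6. In control livers, brighter clock genes read 8.89, 5.24 and 7.89 for Dbp, 7.07, 5.85 and 7.57 for Per1, and 6.36, 7.57 and 6.40 for Arntl. In these genes control replicate 2 stood apart from the other control arrays. Amoxicillin replicate 2 read 5.21 for Dbp and 7.73 for Arntl. The part of the hour of killing in the values of Ppargc1a was not tested.

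**Figure D4:**
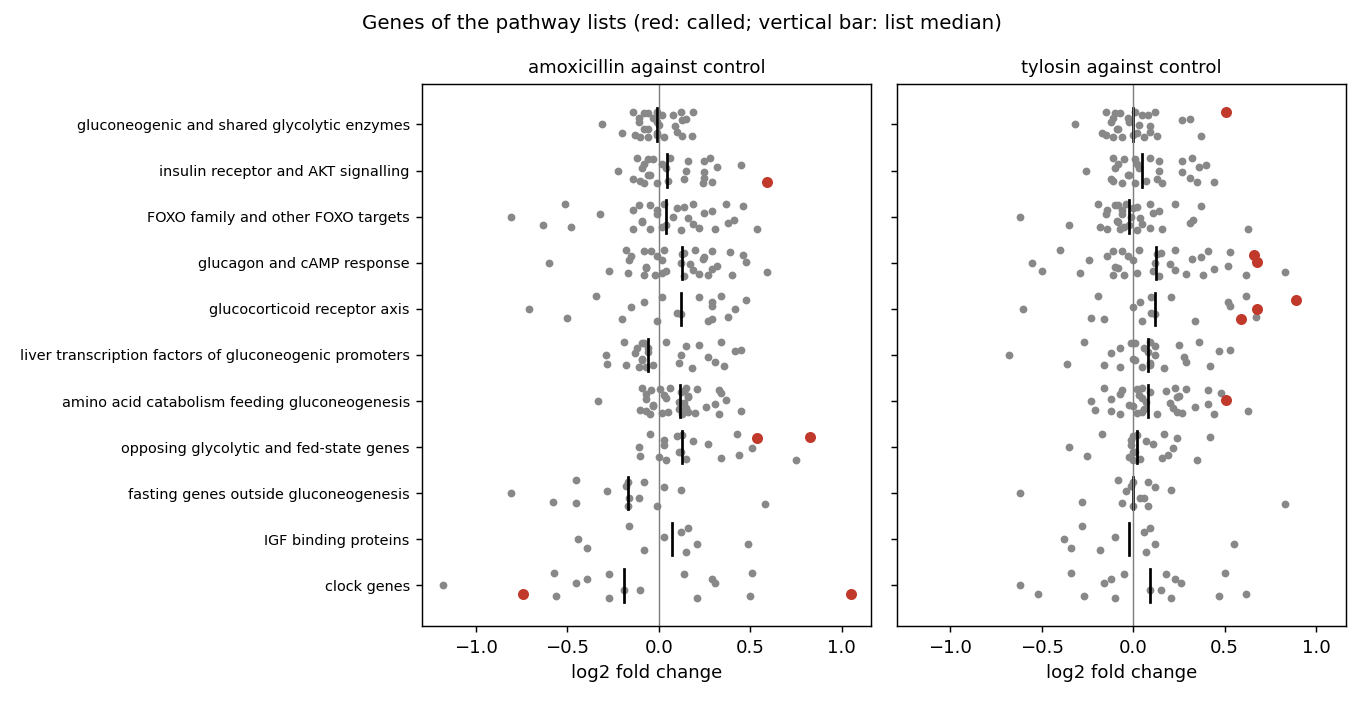
Log2 fold changes (x axis) of the genes of 11 pathway lists (y axis), with amoxicillin against control on the left and tylosin against control on the right. Points are genes, red points calls and vertical bars list medians, and the 9 genes described first are left out. The gluconeogenic enzymes centre on -0.01 and 0.00, and the calls with tylosin in the glucagon and glucocorticoid lists, led by Mt2 at 0.89, lie to the right.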

How the data were processed

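RNA of 9 livers was hybridized to Affymetrix mouse expression arrays. Before deposit the authors ran RMA from the affy software (no version stated), so the deposited values are log2 expression, from 2 to 14.71. Raw intensities were not used. Of 45101 probe sets, 64 manufacturer's controls were left out of the tests. The array annotation gives 1 gene symbol to 34958 probe sets, several to 932 and none to 9211, and each of 18193 genes took its brightest probe set. Array values carry no read depth, and the number of arrays limits the precision.

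The tests used limma 3.58.1 (R 4.3.3), with 1 model of all 9 arrays for 3 comparisons and a separate fit of 6 antibiotic against 3 control arrays. A call was an unadjusted P under 0.01 with an absolute log2 fold change over 0.5, the study's thresholds, and adjusted p-values (Benjamini-Hochberg) cover all 45037 probe sets. The members and the gene lists, 284 genes of 11 pathways with 261 measured, were chosen with earlier results of these data known. Named were all members, the list genes called, and others among the 3 largest differences of a list and comparison. Likeness to a called member was Pearson's r over 9 arrays. Promoters came from RefSeq (GRCm38.p6). The procedure was tested on simulated data, and plots were made in Python 3.11.15 with matplotlib 3.10.9. Alternatives were other thresholds, scalings, variance models, filters and probe set rules, a replicate block, and leaving out each array.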

Additional observations from a re-analysis of the deposited data

Results flagged for a closer look

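Igfbp1 in tylosin replicate 1, at 10.51, stood apart from the other antibiotic arrays, which lay between 11.09 and 11.41, by more than Dixon's limit for a group of 6 samples. Chance flags about 1 in 20 such groups, and 9 genes were looked at. The same array held the highest Ppargc1a value, 8.95, and the lowest Irs2 value, 6.03, of the 9.

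Dusp1 differed between the antibiotics themselves. Tylosin minus amoxicillin was 0.66 (SE 0.19, adjusted p = 1), with 9.38, 9.77 and 9.29 in tylosin livers and 9.20, 8.51 and 8.75 in amoxicillin livers, so that all 3 tylosin arrays were higher. The share of all genes with that order is not given here. It was 1 of 20 genes called in that comparison.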

How the results depend on the processing

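Higher Ppargc1a kept its direction against control under every alternative run. For both antibiotics together, the number of members called higher was 1, and it was 0 with an adjusted p under 0.05, a log2 fold change over 1, quantile normalization, a filter on dim probe sets, a trended and robust variance, or amoxicillin replicate 1 and tylosin replicate 2 left out together; with 1 array left out it was 0 to 1. With amoxicillin alone it was 0, but 1 with an unadjusted P under 0.05 or only the groups compared, and 0 to 1 with 1 array left out. With tylosin alone it was 0, but 1 with an unadjusted P under 0.05 or array weights, and 0 to 1 with 1 array left out. Members called lower with tylosin were 0, but 2 with an unadjusted P under 0.05, and 0 to 1 with 1 array left out. In tylosin against amoxicillin this count was 1 with an unadjusted P under 0.05, and for both antibiotics it was 1 with that threshold and 0 to 1 with 1 array left out.

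The replicate numbers did not pair the samples. Residuals of same-numbered arrays correlated at -0.25 to 0.15, over 0.1 in 2 of 9 pairs, and 3 of 9 arrays had their nearest array among those sharing their number. With a replicate block, 1 member was called higher with amoxicillin and 1 with tylosin.

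Of 720 fold changes recomputed, 49 changed sign, all in uncalled values. With median centring, amoxicillin gave 0.036 for G6pc, 0.034 for Fbp1 and 0.044 for Tat, tylosin 0.031 for Igfbp1, and both antibiotics 0.051 for Fbp1. With the mean of all probe sets, Pck1 was -0.002 with tylosin and Ppargc1a -0.020 in tylosin against amoxicillin. With quantile normalization, Igfbp1 was -0.001 for both antibiotics. Without amoxicillin replicate 1 and tylosin replicate 2, Pcx was 0.009 with amoxicillin, Foxo1 0.016 in tylosin against amoxicillin, and for both antibiotics Fbp1 was 0.014, Igfbp1 -0.075 and Tat -0.056. Leaving out each array in turn moved values across 0 within these ranges. With amoxicillin, G6pc ran from -0.211 to 0.150, Fbp1 from -0.053 to 0.006, Pcx from -0.225 to 0.009, Igfbp1 from -0.114 to 0.333 and Tat from -0.269 to 0.219. With tylosin, Pck1 from -0.039 to 0.185, Fbp1 from -0.017 to 0.043, Foxo1 from -0.009 to 0.481, Igfbp1 from -0.193 to 0.269 and Tat from -0.043 to 0.446. In tylosin against amoxicillin, Pck1 from -0.097 to 0.001, Ppargc1a from -0.273 to 0.387, Foxo1 from -0.134 to 0.028 and Igfbp1 from -0.245 to 0.209. For both antibiotics, Pck1 from -0.014 to 0.210, G6pc from -0.359 to 0.002, Fbp1 from -0.035 to 0.024, Igfbp1 from -0.153 to 0.293 and Tat from -0.156 to 0.332.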
